A study of Mus musculus with 4 samples.

Results

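AGO2 is an Argonaute, the protein through which miRNAs find and silence their target RNAs, and the regions described here are the AGO2-bound stretches of mouse brain 3' UTRs that hold a seed match for miR-30. AGO2 eCLIP (crosslinking, immunoprecipitation and sequencing of the bound RNA) had been run on the whole brain of newborn (postnatal day 0) C57BL/6 mice. An immunoprecipitate (IP) and an input library came from wild-type mice, and the same pair from FMR1 ko mice. The label Jax stands in the titles of both wild-type libraries and of the FMR1 ko input, but not of the FMR1 ko IP. Both IPs used the anti-AGO2 antibody EAG009 on brains frozen in liquid nitrogen. The labels give neither the knockout allele nor the number of brains per library, and with 1 IP per genotype there is no replicate. A region was taken when its midpoint lay in a 3' UTR on the same strand outside any coding sequence (GENCODE M21, mm10), and when the region with 25 bases added on each side held the heptamer TGTTTAC, the 7mer-m8 match to positions 2 to 8 of miR-30a-5p. No read count or score entered this choice. The rule found 226 of the 8599 3' UTR regions (46860 regions in all) called in the wild-type IP and 243 of the 10681 (86106 in all) called in the IP labelled knockout. A further table, in which the wild-type IP was scored against the other IP, held the same 226 regions among its 46862, so that 695 of 179828 deposited regions qualified. They covered 349 distinct heptamers in 328 genes.

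The miR-30 family is a set of miRNAs with a common seed, encoded in several clusters and expressed in many tissues, the brain among them. Like other animal miRNAs, it guides AGO2 mainly to 3' UTRs, where pairing of the seed recruits TNRC6 proteins and the deadenylases that shorten the poly(A) tail and repress the mRNA. An adenosine in the target opposite the first base of the miRNA extends a 7mer-m8 site to an 8mer, which is on average the more effective site. Its targets in other work include the ubiquitin ligase Nedd4, the adhesion molecule Ncam1, the cytokine signalling inhibitor Socs1 and the Argonaute partner Tnrc6a.

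The mature sequences that share the seed are shown first, because the rule rests on it. They come from RefSeq (GRCm38.p6), are written 5′ to 3′, and have positions 2 to 8 in capitals. miR-30b and miR-30d belong to the same family.
miR-30a-5p: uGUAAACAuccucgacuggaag
miR-30c-5p: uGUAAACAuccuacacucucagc
miR-30e-5p: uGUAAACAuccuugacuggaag
miR-384-5p: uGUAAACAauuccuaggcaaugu
miR-384-5p has another name but the same seed, so a seed match cannot tell it from the 3 miR-30 members. Past the seed, miR-30a, miR-30c and miR-30e differ mainly in their 3′ part.

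RNA of these miRNA genes was itself bound by AGO2 in both libraries. On each gene, the region with the highest authors' −log10 p (the authors' scores, for IP reads against the size-matched input, listed up to 400) is given. At Mir30a, the region chr1:23272274-23272290 held 358 wild-type IP reads against at most 1 input read, a log2 over input of 11.15, and 359 knockout-labelled IP reads against at most 1, a log2 of 9.43. Mir30e was higher still in wild type, with a −log10 p of 400 and a log2 of 11.66, and had 432 knockout-labelled IP reads at a log2 of 9.69. Mir30c-2 had 78 wild-type and 45 knockout-labelled IP reads (log2 of 8.95 and 5.43), and Mir30c-1 had 32 and 9 (7.66 and 4.11). Both Mir30c genes encode the same mature miRNA, and how the authors placed reads that fit both is not given in the sources used here. Mir384 had 35 and 43 IP reads (7.79 and 6.37). Read counts were recovered from the deposited scores, in which 0 input reads count as 1, so "at most 1" is written for both. All 5 genes stood far above input in both libraries, and the wild-type log2 was the higher in each. The wild-type input was 6.34 times as deep as its IP and the knockout-labelled input 1.92 times, so with the same IP reads and at most 1 input read the wild-type log2 is higher by 1.72.

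The sites that the results below turn on are shown next: those with many IP reads in both libraries, those in genes with several sites, and those in some targets known from other work. Each line gives the gene, the position of the heptamer (mm10) and 30 bases of the transcript strand from the reference genome, with the heptamer in capitals. A lower-case a right after the capitals makes the site an 8mer.
Sbf1 (chr15:89288543-89288549, minus strand): gggcagggccgccccggccaTGTTTACagc
Gnai2, upstream site (chr9:107614718-107614724, minus strand): agccctgacccaagtccaaaTGTTTACagg
Gnai2, downstream site (chr9:107614433-107614439, minus strand): gtgccttgagtgtgtctgcgTGTTTACacc
Pgm2l1 (chr7:100273222-100273228, plus strand): ctgtatgtatttaagacggaTGTTTACtga
Cep170b, upstream site (chr12:112746090-112746096, plus strand): aggggtagcatgggtctcccTGTTTACact
Cep170b, downstream site (chr12:112746152-112746158, plus strand): cctctgcccagcccacctgaTGTTTACgtg
Rhebl1 (chr15:98878017-98878023, minus strand): tctggtagcctggatgttaaTGTTTACaaa
Gigyf1 (chr5:137527705-137527711, plus strand): tcccctctgagagtggccaaTGTTTACaag
Mkrn3, first site (chr7:62418108-62418114, minus strand): ttcaatcacttctagtctagTGTTTACagt
Mkrn3, middle site (chr7:62417967-62417973, minus strand): ttgcagctgctgtctgtgttTGTTTACatg
Mkrn3, last site (chr7:62417870-62417876, minus strand): tgaccaaaatgaggtgcataTGTTTACatg
Nedd4, upstream site (chr9:72748063-72748069, plus strand): gcagtcacgtagtacatacgTGTTTACgga
Nedd4, downstream site (chr9:72748081-72748087, plus strand): cgtgtttacggagttcattaTGTTTACaga
Ncam1 (chr9:49504449-49504455, minus strand): tgaaggttacaaaagatgatTGTTTACagt
Plxna1 (chr6:89317241-89317247, minus strand): cgcaagcactttagcatttcTGTTTACatg
Lin28b (chr10:45378493-45378499, minus strand): attcacacaagtgaaaattcTGTTTACagc
Tnrc6a (chr7:123194472-123194478, plus strand): agaggtcagtggcttttaacTGTTTACaat
Socs1 (chr16:10783954-10783960, minus strand): attccactcctacctctccaTGTTTACata

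The other libraries and regions set the frame for these members. Markers fixed for neurons and neural progenitors had clusters for all 6 and all 6 genes in either IP. Over all marker lists, 25 of 37 genes had a cluster in wild type and 32 in the other library, among them 1 and 2 of 4 microglial, 1 and 2 of 3 erythroid and 1 and 2 of 3 choroid plexus genes. Fmr1, the gene named by the label, had 2 clusters in wild type and 5 in the other IP, and since the allele is not given these reads check nothing. That library is therefore called knockout-labelled, and a comparison of the 2 IPs compares 2 libraries, not the genotypes. Library totals are not in the files used here. Their scores imply 2.28 knockout-labelled IP reads in all for each wild-type IP read. Intervals in brackets are exact (Clopper-Pearson) 95% binomial intervals. They cover counting error only, since neighbouring regions can share reads.

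Heptamers for miR-30 were concentrated at the AGO2 regions. Of the 3' UTR regions, 2.63% (2.30 to 2.99) held the heptamer in wild type, as did 2.28% (2.00 to 2.58) of knockout-labelled ones. Its reverse complement GTAAACA, a control word that the miR-30 seed does not pair with, was in 0.523% (0.382 to 0.700) and 0.412% (0.299 to 0.553). The control word was also the rarer away from the regions. Beyond 100 bases from the midpoint it numbered 0.0646 and 0.0636 per kilobase, against 0.133 for the miR-30 heptamer in either library. Part of the gap in these shares is thus in the background. The word for the opposite, star arm of the hairpin, ACTGAAA, was in 0.733% and 0.74%. The other families compared, let-7, miR-9 and miR-15/16, gave shares of the same order as miR-30. The miR-124 word was not among them. The let-7 word CTACCTC was in 2.79% and 2.83%, the miR-9 word ACCAAAG in 2.15% and 2.28%, and the miR-15/16 word TGCTGCT in 3.11% and 3.5%. All words were sought on the transcript strand alone.

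Around the midpoint of the 3' UTR regions, miR-30 heptamers numbered 0.323 per kilobase within 40 bases and 0.133 beyond 100 bases in wild type, a ratio of 2.43. The knockout-labelled library had 0.27 against 0.133, a ratio of 2.03. In regions enriched over input (defined below) the ratios were 3.18 and 3.47. The control word had ratios of 1.06 and 0.663 over all 3' UTR regions and of 1.2 and 0.897 in enriched regions, the last 2 from 19 and 4 words within 40 bases. In each of these 4 sets the ratio was higher for the miR-30 heptamer. Among members, the site lay at a median of 0 bases from the midpoint in wild type (quartiles −14 and 11) and −0.5 bases in the knockout-labelled library (−13 and 17), and a median of 20 and 23 bases from the 5′ end of the region.

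**Figure D1:**
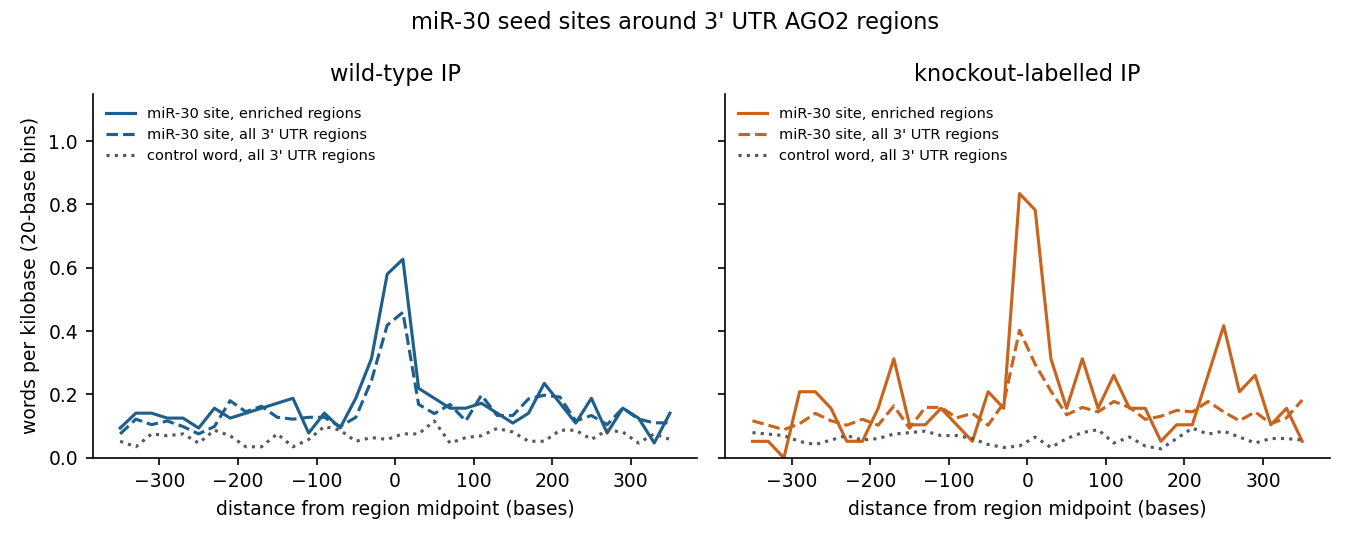
Heptamers per kilobase (vertical axis) in 20-base bins of distance from the region midpoint along the transcript (horizontal axis, bases), for the wild-type IP (left) and the knockout-labelled IP (right). Solid lines are the miR-30 heptamer at regions enriched over input, dashed lines the same at all 3' UTR regions and dotted lines the control word. The miR-30 lines peak at the midpoint in both panels, and the control line, drawn for all 3' UTR regions, has no peak there.

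Regions with a miR-30 site were more often enriched over input than other 3' UTR regions, in each library by its own scores. A region was called enriched when the authors' −log10 p and the authors' log2 over input both reached 3. With at most 1 input read this takes 5 IP reads in wild type and 9 in the other library. In wild type, 120 of 226 members were enriched (53.1%, 46.4 to 59.7), beside 37.1% of all 3' UTR regions, 36.7% (35.6 to 37.7) of those without the heptamer and 24.1% of all regions. In the knockout-labelled library, 47 of 243 were enriched (19.3%, 14.6 to 24.9), beside 8.98% of all 3' UTR regions, 8.74% (8.20 to 9.30) of those without the heptamer and 3.08% of all regions. In neither library did the interval of the members reach that of regions without the heptamer.

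Part of this gap went with read number. Members had 10 or more IP reads in 18.6% of cases (13.7 to 24.3) in wild type and 21% (16 to 26.7) in the other library, against 10.6% and 11.9% of all 3' UTR regions. Among regions at 10 or more IP reads, 41 of 42 members were enriched in wild type (97.6%, 87.4 to 99.9), beside 89.8% of 3' UTR regions at that depth, and 45 of 51 in the knockout-labelled library (88.2%, 76.1 to 95.6), beside 65.4% (62.7 to 68.0). Below 10 reads, the shares were 42.9% (35.7 to 50.4) against 30.9% in wild type, and 1.05% (0.127 to 3.73) against 1.40% in the knockout-labelled library, where such regions rarely reach the limits. Members were also longer, at a median of 43 bases against 37 in wild type and 49 against 46 in the other library. The part of length in the result was not tested. The median log2 over input was 4.66 for members and 4.25 for all 3' UTR regions in wild type, and 2.94 and 2.52 in the knockout-labelled library. At 10 or more IP reads it was 6.31 against 5.99, and 4.52 against 3.64. The input held at most 1 read at 177 of 226 wild-type members (78.3%, 72.4 to 83.5), against 69.7% of all 3' UTR regions. In the knockout-labelled library it did so at 175 of 243 members (72%, 65.9 to 77.6), against 61.1%. Most single values of members thus rest on the IP reads and the depth ratio. Low input was more frequent among members, and its part in the result was not tested. No wild-type member lay below its input (0 of 226, at most 1.62%), against 0.361% of all 3' UTR regions. Of the knockout-labelled members, 1 of 243 did (0.412%, 0.0104 to 2.27), in Snrpn, against 1.91%. In both libraries the members' interval included the share of all 3' UTR regions.

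The place of the heptamer went with enrichment. Where it lay inside the region itself, 64.7% (56.2 to 72.7; 90 of 139) of wild-type and 26.2% (19.3 to 34.0; 39 of 149) of knockout-labelled regions were enriched. Where only the 25 added bases held it, the shares were 34.5% (24.6 to 45.4; 30 of 87) and 8.51% (3.75 to 16.1; 8 of 94), close to those of regions without the heptamer. Just outside the rule, at 26 to 50 bases from the region, they were 37.5% and 12.5%. A longer region can more easily hold the heptamer inside. These classes were not matched for length or reads, and the part of either in this contrast was not tested. Members with an 8mer were enriched in 56.3% (48.0 to 64.3) of wild-type and 24.3% (17.8 to 32.0) of knockout-labelled cases, and members with a 7mer-m8 only in 46.7% (35.1 to 58.6) and 11% (5.4 to 19.3). The intervals of the 2 kinds of site overlapped in both libraries. Regions with the let-7 word were enriched in 55.4% and 27.5%, with the miR-9 word in 47% and 16.9% and with the miR-15/16 word in 51.7% and 15%. The shares of miR-30 regions thus lay among those of the other families compared. The few regions with the control word gave 42.2% (27.7 to 57.8; 19 of 45) and 11.4% (3.79 to 24.6; 5 of 44), and their intervals overlapped those of the members.

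**Figure D2:**
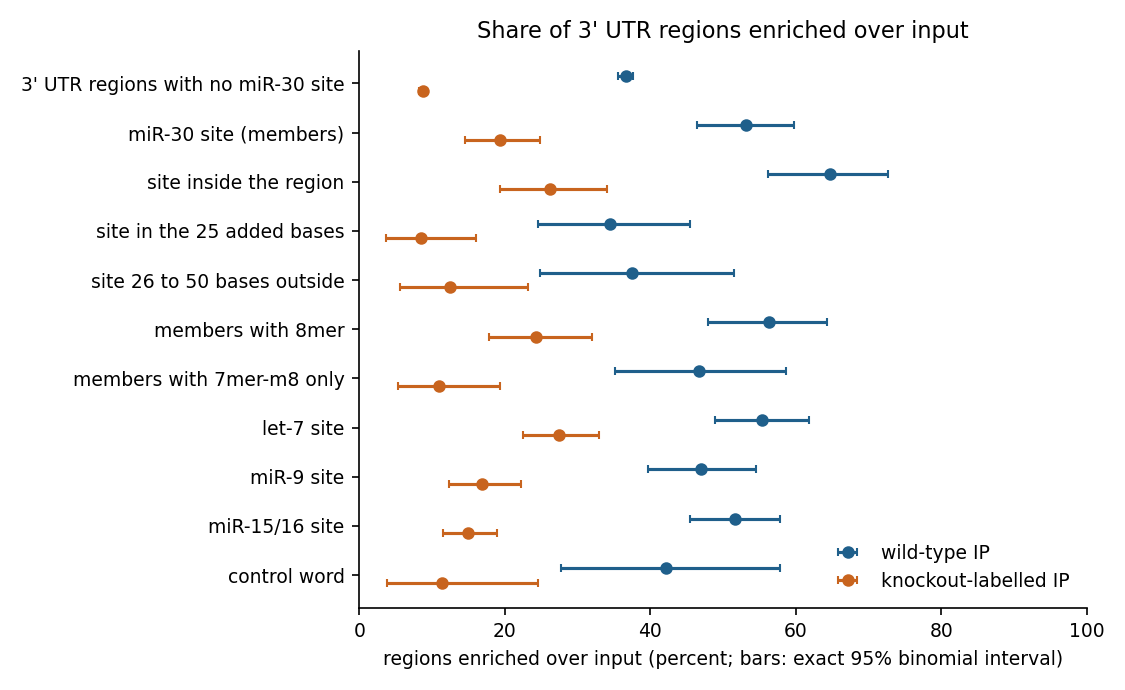
Percent of 3' UTR regions enriched over input (horizontal axis) by the word they hold and where it lies, for the wild-type IP (blue) and the knockout-labelled IP (orange). Points are shares of regions and bars exact 95% binomial intervals. Regions with the heptamer inside lie highest among the miR-30 classes, at 64.7% and 26.2%, and those that only the added bases reach lie near the regions without a site.

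Heptamers in the member windows differed from other heptamers nearby in the base next to the seed match, and the intervals of the 2 shares did not overlap. An A opposite position 1 followed 216 of the 349 heptamers in member windows (61.9%, 56.6 to 67.0), against 295 of 603 heptamers within 400 bases of a 3' UTR region but outside every window (48.9%, 44.9 to 53.0). T followed in 22.6% and 31.5%, C in 11.5% and 16.3%, and G in 4.01% and 3.32%. The flanks of heptamers in the member windows were less rich in A and T, with a median of 56.7% of 30 flanking bases against 63.3%. Beside other AGO2 regions the order was reversed. Member windows had a median of 56.3% A and T in wild type, against 52.9% for all 3' UTR regions. In the knockout-labelled library it was 55.4% against 51.7%. Low A and T content was thus not particular to regions with a miR-30 site. Words of 4 bases that pair with positions 13 to 16 of miR-30a, miR-30c or miR-30e stood in the 20 bases upstream of 17.2% (13.4 to 21.6) of these heptamers and 15.9% (13.1 to 19.1) of those outside. The words were GTCG, GTGT and GTCA. That of miR-30a was at 7 of 349 (2.01%, 0.81 to 4.09) and 4 of 603 (0.663%, 0.181 to 1.69), and these intervals overlapped. That of miR-30c was at 11.7% and 9.95%, and that of miR-30e at 6.59% and 5.97%. Along the 3' UTR, members lay at a median of 41.6% of its length in wild type, against 40.6% for all 3' UTR regions. A let-7, miR-9 or miR-15/16 word stood in the same window at 1.33%, 0.885% and 1.77% of wild-type members and 1.65%, 2.06% and 4.12% of knockout-labelled members, beside the shares of all 3' UTR regions given above.

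In 36 genes a wild-type member enriched over input overlapped an enriched region of the knockout-labelled library, and 29 of these wild-type regions held an 8mer. Of the 120 enriched wild-type members, 85 held an 8mer, as did 151 of all 226. The bases that both regions share need not hold the heptamer, and at Lmbr1l and Celsr3 they do not. Among the genes with the most IP reads were Gnai2, Sbf1, Pgm2l1, Cep170b, Mkrn3, Gigyf1, H1f0, Rhebl1 and Lmbr1l. The log2 over input was higher in wild type in 35 of the 36, with a median difference of 1.58 and a range from −0.51 at Map6 to 3.41 at Nedd4. The depth ratios alone set 1.72 of difference where IP reads are equal and the input has at most 1 read, so these differences are given as values of 2 libraries with unequal inputs.

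Of the 36 genes, several act in transcription and chromatin. H1f0, the linker histone H1.0, had 32 IP reads in either library, against 2 input reads in wild type and at most 1 in the other (log2 of 6.66 and 5.94). Smarcd2, a subunit of the SWI/SNF remodelling complex, had 16 and 22 (6.66 and 5.40), and Aff4, a scaffold of transcription elongation, had 6 and 15 (5.25 and 4.85). Nfib, a nuclear factor I protein of neuron and glia maturation, had 10 and 14 (5.99 and 4.75), and Plagl2, a zinc finger factor, had 8 and 14 (4.08 and 3.75). Chd1, a chromatin remodeller, is not among these 36, as its enriched region lay at a different site in each library. Its downstream 8mer had 12 wild-type reads against at most 1 input read (6.25) and no knockout-labelled region. Its upstream 7mer-m8 had a region in both libraries, with 4 wild-type (4.66) and 19 knockout-labelled reads (5.19).

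Others of the 36 act in signalling. Gnai2, the inhibitory G protein subunit alpha i2, had 54 wild-type IP reads against 4 input reads at its downstream site (6.42) and 39 knockout-labelled reads against 3 (4.64). At its upstream site, 285 bases away, it had 16 against 2 (5.66) and 37 against 6 (3.56). Rhebl1, a small GTPase related to the mTOR activator Rheb, had 37 and 20 IP reads against at most 1 input read (7.87 and 5.26). Map3k12, the kinase DLK of axon injury responses, had 9 and 15 (5.83 and 4.85), Pik3r2, a regulatory subunit of phosphoinositide 3-kinase, had 8 and 10 (5.66 and 3.26), and Rasa2, a Ras GTPase-activating protein, had 5 and 12 (4.99 and 3.52). Gigyf1, an adaptor of growth factor receptor signalling and translation, had 24 and 47 (7.25 and 6.49). The members of this group spanned 5 to 54 wild-type reads and 10 to 47 knockout-labelled reads.

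Of the same 36 genes, Plxna1, Ncam1, B3gat1 and Tenm3 act in adhesion and axon guidance. On the list fixed for these roles, Sema6d and Efna3 had members in the knockout-labelled library alone and Plxna2 and Nrp2 in wild type alone. Plxna1, a semaphorin receptor, had 9 wild-type and 23 knockout-labelled IP reads against at most 1 input read (5.83 and 5.46). Ncam1, the neural cell adhesion molecule, had 7 against at most 1 and 28 against 5 (5.47 and 3.42). B3gat1, which makes the HNK-1 sugar epitope carried by neural adhesion molecules, had 13 against at most 1 and 25 against 5 (6.36 and 3.26). Tenm3, a teneurin adhesion protein, had 16 against 3 and 17 against 3 (5.08 and 3.44). For Celsr3, an atypical cadherin of axon tract formation, the wild-type member had 13 IP reads (6.36), and the overlapping enriched knockout-labelled region had 11 against 2 (3.40). St8sia4, a polysialyltransferase that modifies Ncam1, was a member in the knockout-labelled library alone, with 15 IP reads against 2 (3.85). The order of these genes by reads was not the same in the 2 libraries.

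The silencing machinery and the ubiquitin system held members as well. Lin28b, which blocks maturation of let-7, had 10 wild-type and 11 knockout-labelled IP reads (5.99 and 4.40), and Tnrc6a, the scaffold that AGO2 recruits, had 6 and 12 (5.25 and 4.52), all against at most 1 input read. Tnrc6b and Tnrc6c each had 7 wild-type reads against 2 (4.47) and no knockout-labelled member, and Ago1 had 6 knockout-labelled reads against 2 (2.52) and no wild-type member. Nedd4, a HECT ubiquitin ligase, had 15 wild-type reads against at most 1 and 14 knockout-labelled reads against 3 (6.57 and 3.16) in regions that hold both of its sites. Psme3, an activator of the proteasome, had 10 and 11 (5.99 and 4.40), and Rnf6, a RING ubiquitin ligase, had 9 and 8 (5.83 and 3.94). Mkrn3, an imprinted makorin ubiquitin ligase, had 31 wild-type reads over its middle and last sites (7.62), against 13 and 9 knockout-labelled reads in separate regions at these sites (4.64 and 4.11).

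The remaining genes bound in both libraries with many reads have varied roles. Sbf1, a catalytically inactive myotubularin, had 53 wild-type IP reads against at most 1 input read (8.39) and 101 knockout-labelled reads against 2 (6.60), the most of any knockout-labelled member, at an 8mer 83 bases into a 3' UTR of 394 bases. Pgm2l1, which makes glucose 1,6-bisphosphate in brain, had 45 against 4 and 77 against 4 (6.16 and 5.21). Cep170b, a relative of the centrosomal protein Cep170, had 53 against 2 and 40 against 2 (7.39 and 5.26). Cpsf6, a subunit of the mRNA cleavage factor, had 23 and 12 (7.19 and 4.52), Lmbr1l 22 and 20 (7.12 and 5.26), Ccdc71l 11 and 24 (6.12 and 5.52) and Nol4l 7 and 32 (5.47 and 4.35). Map6, a protein that stabilises microtubules, had 7 wild-type reads against 3 and 11 knockout-labelled reads against at most 1 (3.89 and 4.40), which makes it the only gene of the 36 with the higher log2 in the knockout-labelled library.

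**Figure D3:**
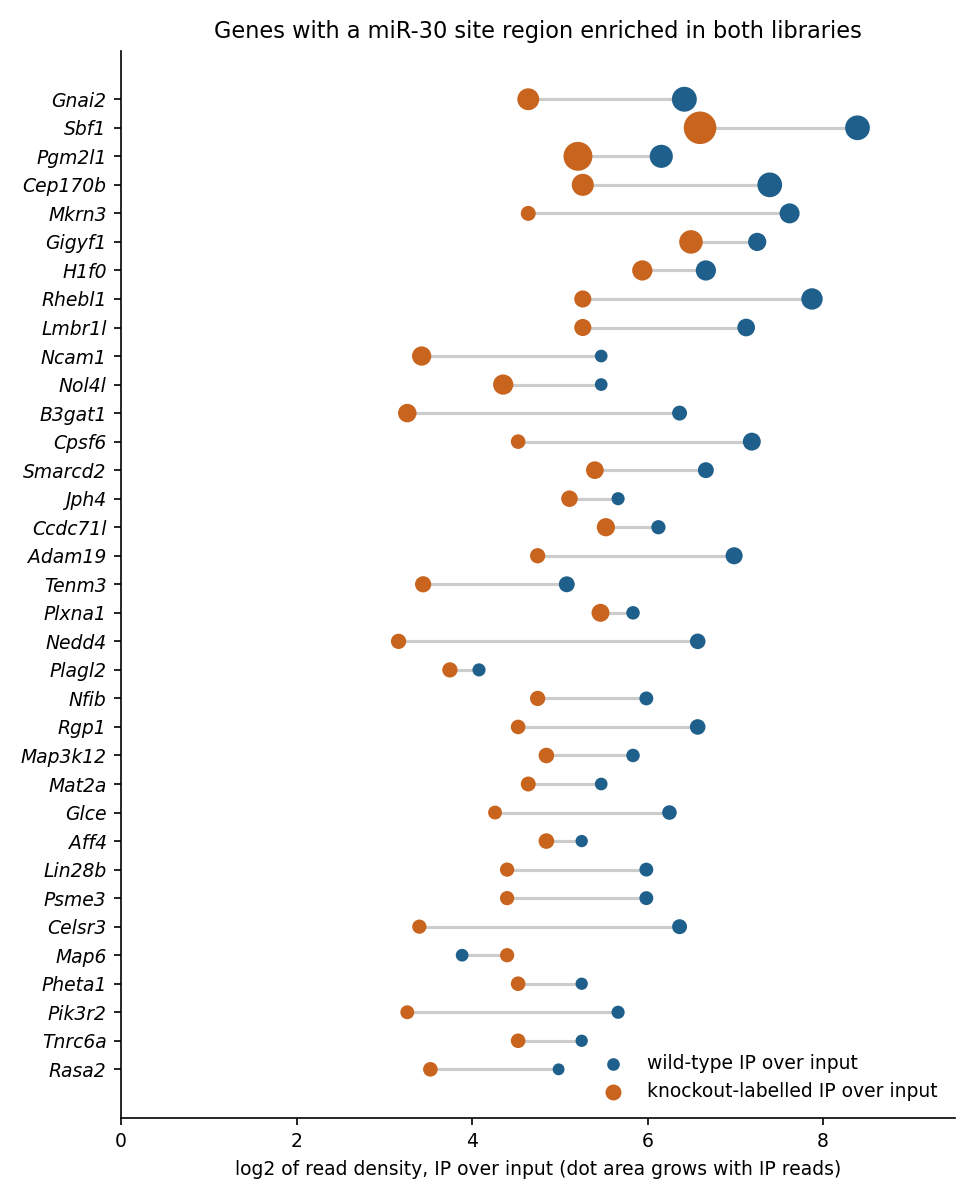
Log2 of IP over input (horizontal axis) for 35 of the 36 genes in which an enriched wild-type member overlaps an enriched knockout-labelled region. Genes are ordered by IP reads. Blue points are the wild-type IP, orange points the knockout-labelled IP, and the area of a point grows with its IP reads. The wild-type point lies to the right in all genes drawn except Map6.

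Most genes had a single heptamer in the member windows (308 of 328), 19 had 2 and Mkrn3 had 3. In the 3' UTR of Mkrn3, 817 bases long, the 3 sites lie 141 and 97 bases apart and each is an 8mer. The sites of Nedd4 lie 18 bases apart, those of Wdr7 20, of Stk35 22, of Adam22 24, of Galnt7 34 and of Cep170b 62, and each of these pairs fell into the window of 1 region. Other pairs were far apart, up to 6417 bases in Tmod2, and their regions were separate.

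Members were more often met in the other library than other 3' UTR regions. A wild-type member overlapped a knockout-labelled region by at least 1 base in 105 of 226 cases (46.5%, 39.8 to 53.2), against 32.8% of all 3' UTR regions, and a knockout-labelled member overlapped a wild-type region in 101 of 243 (41.6%, 35.3 to 48.0), against 24.8%. Of the enriched members, 39 of 120 in wild type (32.5%, 24.2 to 41.7) lay on an enriched region of the knockout-labelled library, against 20.9% of enriched 3' UTR regions. In the other direction it was 40 of 47 (85.1%, 71.7 to 93.8), against 67.7% (64.6 to 70.6). Members more often had 10 or more IP reads (above), and at that depth 81% of wild-type and 92.2% of knockout-labelled members were met. The share of all 3' UTR regions met at that depth was not taken. Whether members are met more often at equal reads was therefore not tested. Of the 349 heptamers, 211 lay in windows of wild-type regions, 238 in windows of knockout-labelled regions and 100 in both.

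A few members with 10 or more IP reads had no overlapping region in the other library. In wild type these were Sox12, a SoxC transcription factor of young neurons, Socs1, Vat1, Rnf44, Rabl6, the downstream site of Chd1, Gfpt2 and Taok1. In the knockout-labelled library they were St8sia4, a second site of Ncam1 (11 reads against 5), Dpysl2, a regulator of axon growth (10 against 5), and Fem1c (10 against at most 1). The heptamer of Rabl6 also lay in the window of a neighbouring knockout-labelled region (9 reads against 2). The lack of a region did not always mean a lack of reads. In the authors' deposited table of the 2 IPs, the knockout-labelled IP had 13 reads in the Sox12 region, 5 in the Vat1 region, 4 in each of the Chd1 and Taok1 regions, 3 in the Rabl6 region, 2 in each of the Socs1 and Gfpt2 regions and at most 1 in the Rnf44 region.

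The last comparison asks how the 2 IPs differ at these sites. The values are the authors' log2 of wild-type over knockout-labelled read density in the authors' deposited table, whose regions are those of the wild-type file in 46799 of 46862 cases. The table thus holds few regions that only the other IP called, and the IPs were compared without their inputs. The median over the 226 members was 1.75, and over all 3' UTR regions it was 1.93. Both medians depend on reads. At 10 or more reads in both IPs together they were 1.19 (104 members) and 0.97, and at 20 or more 0.87 (42 members) and 0.77. Below 0 lay 15 of 226 members (6.64%, 3.76 to 10.7), against 5.21% of all 3' UTR regions.

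With an authors' −log10 p of at least 3 and a log2 of at least 1 as limits, 19 of 226 members were higher in the wild-type IP (8.41%, 5.14 to 12.8), beside 3.81% of all 3' UTR regions and 3.39% of all regions in the authors' deposited table. Reads again differed between the sets. At 20 or more reads in both IPs together, 12 of 42 members passed (28.6%, 15.7 to 44.6), beside 13.7% (11.5 to 16.1) of 3' UTR regions at that depth, and these intervals met. The deposited table gives a −log10 p of 0 to all 2915 of its regions below 0, so lower regions were tested from the recovered reads. In that direction, 0 of 226 members and 0 of the 8581 3' UTR regions tested passed. Nearly all regions of this table were there because the wild-type IP called them. The 19 higher and 0 lower members therefore cannot show in which direction the 2 IPs differ more often.

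Socs1, an inhibitor of cytokine receptor signalling, stood out most by −log10 p in the authors' deposited table, with 21 wild-type against 2 knockout-labelled IP reads (log2 of 4.58, −log10 p of 8.73). The Socs1 region also holds the let-7 word CTACCTC, just upstream of its miR-30 heptamer. Which of these 2 seed matches its reads go with was not tested. Rhebl1 had 37 against 21 (2.01), Cep170b 53 against 41 (1.56) and the downstream site of Gnai2 54 against 43 (1.52). Rnf44, a RING finger protein, had 15 reads against at most 1 (5.09), Vat1 18 against 5 (3.04) and Rabl6 13 against 3 (3.30). Mkrn3 had 31 against 21 (1.75), Cpsf6 23 against 13 (2.01), Sox12 22 against 13 (1.95), Lmbr1l 22 against 15 (1.74), Gfpt2 10 against 2 (3.51) and the downstream site of Chd1 12 against 4 (2.77). The protocadherins Pcdh10 and Pcdh19 had 17 against 8 (2.28) and 16 against 7 (2.38). Elmod2 had 9 reads against at most 1, and Adamts3 and Celf2 had 8 each. Nearest below the limit on −log10 p were Adam19, a metalloprotease, with 20 against 15 (1.60, −log10 p of 2.92) and H1f0 with 32 against 33 (1.14, −log10 p of 2.78). Tbc1d10b and Adrb1, a beta-adrenergic receptor, had 8 against 2 (3.19 each), and Rock2, a kinase of the actin cytoskeleton, had 8 against 3 (2.60), and these did not pass. A log2 of 0 stands for 2.28 knockout-labelled reads per wild-type read, so a gene with nearly equal reads, such as H1f0, is above 0.

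The upstream site of Chd1 had the lowest log2 of the members in the authors' deposited table, with 4 wild-type against 20 knockout-labelled IP reads (−1.13). Prrt2, a synaptic protein of neurotransmitter release, followed with 3 against 13 (−0.93) in 1 of its 2 abutting regions and 3 against 8 (−0.23) in the other. Tmod2, a tropomodulin that caps neuronal actin filaments, had 19 against 76 (−0.81), and Ncam1 had 7 against 28 (−0.81). Snrpn and Nol4l had 13 against 39 and 7 against 21 (−0.40 each). Lpgat1 had 3 against 9 (−0.40), Aff4 6 against 17 (−0.31), Hic2 4 against 11 (−0.27), and Me1 3 against 8 (−0.23). None of these passed the limits. At the most read 8mer of the knockout-labelled library, in Sbf1, the IPs had 53 and 111 reads (0.12), and Gigyf1 had 24 and 47 (0.22) and Pgm2l1 45 and 77 (0.41). The 2 sites of Gnai2 differed, at 1.52 and 0.14, and the 2 sites of Chd1 at −1.13 and 2.77, each with no test of that difference.

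**Figure D4:**
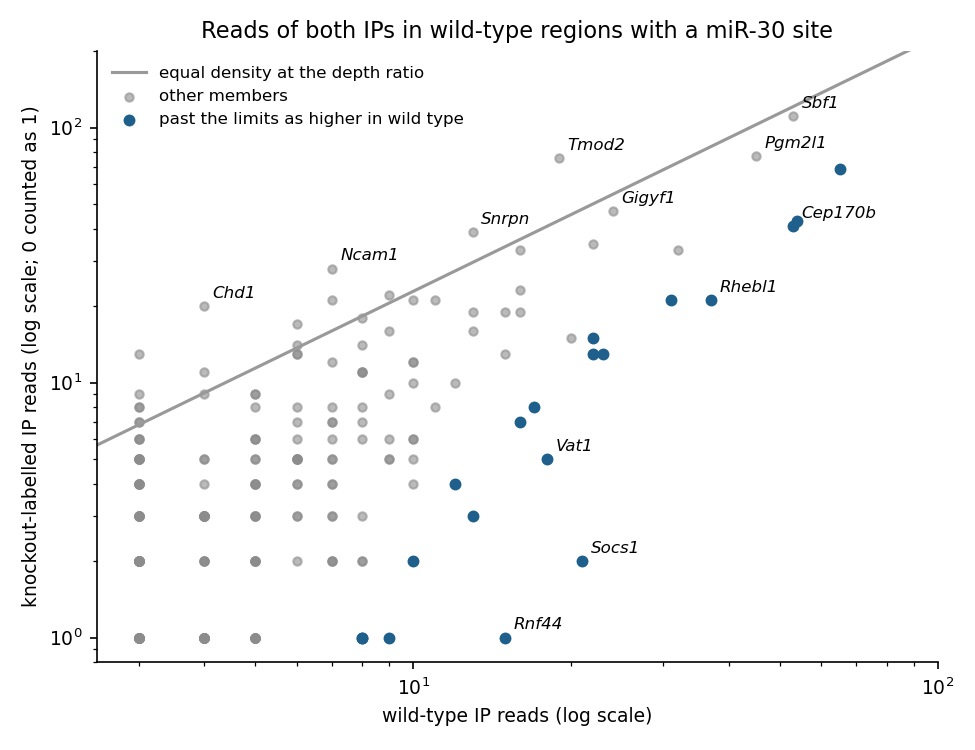
Reads of the knockout-labelled IP (vertical log axis, 0 counted as 1) against reads of the wild-type IP (horizontal log axis) in wild-type regions with a miR-30 site. Blue points passed the limits as higher in wild type, grey points are the other members, and the line marks equal read density at the depth ratio of 2.28. Most points lie below the line, and Chd1, Tmod2 and Ncam1 lie above it.

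By lists of genes, members were found in 328 of the 5435 genes with a 3' UTR region (6.03%). Of 24 such genes known as miR-30 targets from other work, 9 held a member: Gnai2, Ncam1, Nedd4, Socs1, Tnrc6a, Bcl9, Galnt7, Galnt1 and Lifr. Bcl9, Galnt7, Galnt1 and Lifr had 3 to 5 IP reads in a single library. Of transcription factors of neuron formation, 9 of 40 held one, among them Nfib, Sox12, Tcf4, Nfia, Sox4, Meis2 and Neurod1. Tcf4 had 19 knockout-labelled IP reads against 6 (2.60), Nfia 9 against 2 (3.11) and Sox4 7 wild-type reads against 3 (3.89). The miRNA pathway had 5 of 21 (the 3 Tnrc6 genes, Lin28b and Ago1), the ubiquitin system 7 of 29 (Nedd4, Rnf6, Rnf165, Herc2, Klhl20, Ube4b and Cul2) and growth signalling 8 of 46, among them Map3k12, Pik3r2, Socs1 and Rasa2. Axon guidance and adhesion had 7 of 44 and chromatin regulators 5 of 35. The synapse list, with Camk2n1, Scn3a, Syn2, Camk2d and Gabrb2, had 5 of 53, with 3 to 6 IP reads each. The cytoskeleton list, with Map6, Kif1a, Nav1 and Kif5c, had 4 of 46, and the list of FMRP-bound mRNAs 4 of 27 (Celsr3, Kif1a, Herc2 and Nav1). The number of 3' UTR regions per gene was not matched between the lists, and its part in these shares was not tested.

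The 328 target genes fall into groups by library and enrichment. An enriched member in each library was found in 36, among them Adam19, Aff4, B3gat1, Ccdc71l, Cep170b, Chd1, Cpsf6, Gigyf1, Glce, Gnai2, H1f0, Jph4, Lin28b, Lmbr1l, Map3k12, Map6, Mat2a, Mkrn3, Ncam1, Nedd4, Nfib, Nol4l, Pgm2l1, Pheta1, Pik3r2, Plagl2, Plxna1, Psme3, Rasa2, Rgp1, Rhebl1, Sbf1, Smarcd2, Tenm3 and Tnrc6a. This count by gene includes Chd1, whose enriched regions lie at different sites, and leaves out Celsr3, whose enriched knockout-labelled region does not itself reach the heptamer.

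An enriched member in wild type only was found in 75 genes, among them Adamts3, Adrb1, Ankra2, Atp2b2, B3galnt2, BC037034, Brwd3, Camta1, Celf2, Celf3, Celsr3, Cep350, Cit, Cpeb4, Csnk1g1, Dgkz, Dhcr7, Elavl3, Elmod2, Fam124a, Fgfr3, Gfpt2, Gli2, Glipr2, Gpcpd1, Hnrnpul2, Impact, Kif1a, Klhl20, Lclat1, Mob3a, Myh10, Pcdh10, Pcdh19, Plppr4, Polr3g, Ppm1h, Ppp1r12a, Qk, Rabl6, Rasd1, Rgs8, Rnf44, Rnf6, Rnmt, Rock2, Rsad1, Rtl6, Rtn4r, Setd1b, Slc7a11, Snx18, Socs1, Sox12, Sox4, Stk35, Susd6, Taok1, Tbc1d10b, Tmcc1, Tmod2, Tnks, Tnrc6b, Tnrc6c, Tspyl1, Ubn1, Vat1, Wdr7, Wdr82, Zbtb34, Zbtb7a, Zcchc14, Zfp36l2 and Zfp9. Of these, Elavl3, a neuronal RNA-binding protein, had 22 wild-type IP reads against 6 (4.54), while its knockout-labelled region held 87 against 117 (0.51). An enriched member in the knockout-labelled library only was found in 8: Cant1, Fem1c, Hic2, Pitpnm2, Pnkd, Prrt2, St8sia4 and Zfyve26. With at most 1 input read, the limits take 5 wild-type IP reads but 9 knockout-labelled ones. Of all 3' UTR regions, 37.1% were enriched by the wild-type scores and 8.98% by those of the other library. The same grouping was not made for all genes with a 3' UTR region. Whether 75 against 8 is particular to miR-30 targets was therefore not tested.

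No member was enriched in the other 209 genes. Regions of both libraries were found in 22 of them: Adgra2, Ap3s1, Cdk13, Dlg5, Eea1, Elovl5, Jdp2, Kctd7, Lpgat1, Lpp, Lrch2, Me1, Oxr1, Plekha1, Pptc7, Reep3, Snrpn, Tnpo1, Tsc22d2, Ubn2, Vps35 and Ythdf3. Wild-type regions alone were found in 63, among them Abca9, Ak1, Amotl2, Atxn1, Bahd1, C9orf72, Cadm2, Capn5, Clock, Cyb561, Cybc1, Daglb, Dcun1d3, Dmxl2, Fam117b, Fbxl20, Gabrb2, Gigyf2, Gm20604, Gpd1l, Grb10, Heatr6, Igsf3, Itfg1, Kif5c, Klhl24, Lancl3, Lepr, Lifr, Lrrc40, Meaf6, Mlxip, Ncan, Neurod1, Nrp2, Papolg, Pcgf5, Phtf2, Pip4k2a, Plxna2, Ptpn2, R3hdm1, Rab11a, Rapgef4, Rnf219, Scn3b, Setd7, Sh3rf1, Slc6a6, Slc7a1, Slitrk1, Syn2, Tnfrsf19, Tor1b, Trmt10a, Tspan33, Tub, Ube2f, Usp49, Zbtb41, Zcchc2 and Zswim5.

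Knockout-labelled regions alone were found in 124, among them Adam22, Adar, Adra2a, Ago1, Ahnak, Akap11, Akap6, Alg11, Ankrd52, Ap2a1, Aplp2, Arid5b, Arih1, Armt1, Atp8a2, Avl9, B4galt6, Bcl2l13, Bcl9, Bend3, Bmp2k, Brdt, Cab39l, Camk2d, Camk2n1, Capn7, Cbfb, Chml, Cmtm3, Ctnnd2, Cul2, D630045J12Rik, Ddx17, Dip2b, Dnajb14, Dpysl2, Dstyk, Dtwd2, Efna3, Elavl4, Epc1, Fam131b, Fam219b, Fam49a, Fam49b, Fbxo3, Fbxw2, Fech, Galnt1, Galnt7, Gas7, Glcci1, Gnai1, Gpr26, Herc2, Jagn1, Jarid2, Josd1, Katnal1, Kcnc2, Kirrel, Kmt5b, Lipa, Maf, Mafg, Map3k5, Mapk8, Meis2, Mex3b, Mier3, Mycn, Myo5a, Nadk, Nav1, Nell2, Nfia, Nhlh2, Nova1, Phf6, Pik3cd, Pip4k2b, Pip5k1c, Polr3e, Ppp1r7, Prlr, Ptbp2, Ptprz1, Pttg1ip, Ranbp6, Rarg, Rasa1, Rbm26, Rcor1, Reep1, Rgs17, Rgs2, Rlf, Rnf157, Rnf165, Scn3a, Sema6d, Sh3gl2, Slc35a5, Slc35b4, Slc38a7, Slc5a3, Spast, Spen, Stxbp5, Tcf4, Tusc3, Ube4b, Vat1l, Vopp1, Vps33a, Wipf3, Zcchc24, Zdhhc20, Zfp280b, Zfp652 and Zfp871.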

How the data were processed

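The values describe AGO2 eCLIP of whole brain, 1 IP and 1 input library per genotype (4 samples in 3 files). Per the labels' protocols, Cutadapt 1.15 trimmed the adapters, repeat reads were removed, the rest were mapped to mm10 with STAR 2.6.0c, duplicates were removed with UMI tools 5.2, and CLIPper 1.4 called clusters in the IPs, whose read density a custom perl script set against the size-matched input. The values deposited by the authors are a −log10 p (listed up to 400) and a log2 of IP over input density for every cluster. In the deposited series table both compare wild type with the knockout-labelled library, IP with IP, and how that table was made is not given in the sources used here. Enrichment and higher calls use these scores as deposited.

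Reads were recovered from the scores: each log2 equalled the log2 depth ratio plus that of 2 whole numbers (the lower up to 1000), and the reads were those whose 2-sided exact binomial p, or chi-square p with Yates correction where observed and expected reads were 5 or more, met the listed −log10 p within 1%. This gave reads for 45868 of 45869 regions of the wild-type file, all 75411 of the knockout-labelled file and all 43232 of the series table with a −log10 p between 0 and 400, and 42615 of 42615 wild-type regions gave the same reads from both tables. Of the 226 and 243 members, 1 (Snrpn, knockout-labelled) gave no reads. On simulated reads, all were recovered at 3 known depth ratios.

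The annotation was GENCODE M21. In the reference, 27887 of 27907 start codons read ATG. Shares carry exact binomial intervals, and no test across libraries exists with 1 library per genotype. Python 3.11.15, numpy 2.4.6, scipy 1.17.1, pandas 2.3.3, pysam 0.24.0, intervaltree 3.1.0, samtools 1.23.1 and matplotlib 3.10.9 were used. Alternatives changed the window, the kind of site, the annotation rule, the limits, read minimums, the overlap rule and the centring. Genes named with values were the 15 with most IP reads among those enriched in both libraries, the 10 highest by −log10 p in each library, the 10 highest and 10 lowest in the series table at 10 or more reads, genes with 3 or more heptamers, and up to 6 members of each list. Others, such as Elavl3, St8sia4, Psme3 and the remaining calls, were named after their values were seen, and the regions on miRNA genes were added then too. A few target genes are counted but not reported by name here. The members, limits and lists were chosen with earlier results of these data known.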

Additional observations from a re-analysis of the deposited data

Results flagged for a closer look

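Snrpn, an imprinted gene whose protein SmN belongs to the splicing machinery, was the member whose log2 over input lay on opposite sides of 0 in the 2 libraries. It was 0.26 in wild type, with 13 IP reads against 69 input reads, and −1.03 in the knockout-labelled library. The difference was not tested, and neither value passed the limits for enrichment.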

How the results depend on the processing

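No paired analysis was possible because each genotype has 1 library and the labels carry no replicate numbers. The planned miR-124 word was not run. Alternatives marked as added were chosen after the data had been seen. The number of members fell to 139 (wild type, also in the series table) and 149 (knockout-labelled) with no added bases, and to 152 knockout-labelled members with 8mers only. It stayed within 1.5 times with 50 added bases, with coding overlap allowed, with whole regions inside the 3' UTR, with 1 region per heptamer (added) and with protein-coding transcripts alone (added). The share enriched was 29.6% (wild type) and 9.05% (knockout-labelled) at limits of 5 and 4, 97.6% and 88.2% at 10 or more IP reads, and 64.7% and 26.2% with no added bases. The median log2 over input was 3.06 and 2.34 at 5 or more input reads (4 and 12 members) and 6.31 and 4.52 at 10 or more IP reads. The share met in the other library was 19.9% and 32.5% against its enriched peaks and 81% and 92.2% at 10 or more IP reads (added). The share of 3' UTR regions with the heptamer was 1.76% and 1.42% for 8mers, 1.62% and 1.4% with no added bases, 3.76% and 4.9% in enriched peaks and 4.6% and 4.02% at 10 or more IP reads. With other words it was 0.523% and 0.412% (control), 2.83% (let-7, knockout-labelled), 2.15% (miR-9, wild type), and 3.11% and 3.5% (miR-15/16). From the 5′ end of the region the site lay at a median of 20 and 23 bases. The median log2 between the IPs at members was 1.19 at 10 or more reads and 0.87 at 20 or more. It changed sign to −0.18 when centred on all 3' UTR regions, which have the higher median, and was 0.095 when both were taken at 20 or more reads (added), so the members' place relative to other 3' UTR regions in this comparison depends on the read minimum. At limits of 5 and 2, 4 members were higher in the wild-type IP in place of 19. With at most 1 input read at most members, single values rest on few reads and have no replicate check.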
